A study of Mus musculus with 4 samples.

Results

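The levels and co-detection of 10 genes that mark luminal progenitors or specify mammary cell lineages, Kit, Aldh1a3, Elf5, Ehf, Sox9, Sox10, Trp63, Id4, Stat5a and Tspan8, were examined in mouse mammary tumors. The genes were chosen by symbol and are 10 of the 32285 genes in the feature table. Of these, 7 encode transcription regulators, while Kit is a receptor, Aldh1a3 an enzyme and Tspan8 a membrane protein. All 10 were measured in single epithelial cells and, for comparison, in the immune and stromal cells of the same tumors.

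The assay was droplet-based single-cell RNA sequencing, read out as UMIs (unique molecular identifiers, 1 for each RNA molecule captured from a cell). Tumors were taken at the endpoint, at 17 to 18 weeks. The genotypes were MMTV-Cre-; Frmd8 fl/fl; PyMT (Cre-, replicates 1 and 3) and MMTV-Cre+; Frmd8 fl/fl; PyMT (Cre+, replicates 2 and 4), with 1 library per replicate. Every mouse therefore carried the floxed Frmd8 alleles and the PyMT oncogene, the polyoma middle T antigen that drives the tumors, and Cre was the difference. The paper bred such mice as littermates. Each replicate was taken here as 1 mouse, or 2 mice per genotype, which the sample titles do not state. The paper describes the knockout, with Cre under the MMTV promoter, as specific to the luminal epithelium. Whether immune and stromal cells kept Frmd8 was not tested here. The cells had been sorted by flow cytometry before loading.

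Mammary epithelium holds an inner luminal layer and an outer basal, or myoepithelial, layer. Luminal cells divide into hormone-sensing cells, which carry the estrogen, progesterone and prolactin receptors, and secretory alveolar cells, whose progenitors are marked by the receptor tyrosine kinase Kit and the retinaldehyde dehydrogenase Aldh1a3. Elf5 is the ETS factor of the alveolar fate and works with Stat5a downstream of prolactin, whereas Trp63 encodes p63, the basal lineage factor. Tumors of the MMTV-PyMT model are known to be mostly luminal.

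A total of 23572 barcodes held at least 1000 UMIs and at most 20% mitochondrial UMIs, with 4922 and 5918 in the Cre- and 5609 and 7123 in the Cre+ libraries. Here and below, values of single libraries are given as Cre- replicates 1 and 3, then Cre+ replicates 2 and 4. Epithelial cells were barcodes in which Epcam, Krt8 and Krt18 together reached 10 UMIs per 10000, even where the immune or stromal markers scored higher. They numbered 2526, 2674, 2568 and 3200, or 10968 of all cells, beside 9281 immune, 2442 stromal and 881 unassigned barcodes. Median depth per epithelial cell was 22010.5, 15810.5, 13297 and 11580.5 UMIs. The gate cut a continuous score, with 248, 745, 456 and 518 epithelial cells between 10 and 20 UMIs per 10000 and 200, 363, 198 and 379 other barcodes between 5 and 10. Of the epithelial cells 7.88%, 21.3%, 7.32% and 11.3% also passed the immune or stromal gate. The median of the epithelial gate was 26.2 to 44.6 UMIs per 10000 in epithelial cells and 0 in immune cells.

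Cre+ replicate 4 stood apart, since it was deposited with all 2582424 barcodes and processed with another Cell Ranger version. An order-of-magnitude minimum of 10978 UMIs was set for this library only, and 1557 of its 3200 epithelial cells were under it. The other libraries had no such minimum, so this share cannot be compared with them. Pairs of libraries shared between 6 and 16 cell barcodes. Frmd8 itself was counted at 24.2 and 24.1 counts per 1000000 UMIs in Cre- and at 5.68 and 10.9 in Cre+ epithelial cells, so that the genotypes did not overlap. The 3' tag can lie outside the floxed exons, so this checks the labels only in part.

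All levels below are CPM, the UMIs of a gene per 1000000 UMIs summed over the cells of a class in 1 library. A UMI is counted near the 3' end, once per molecule, and is not scaled by transcript length. A summed level does not separate more cells with the RNA from more RNA per cell, and the detection shares further below address the first.

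**Figure D1:**
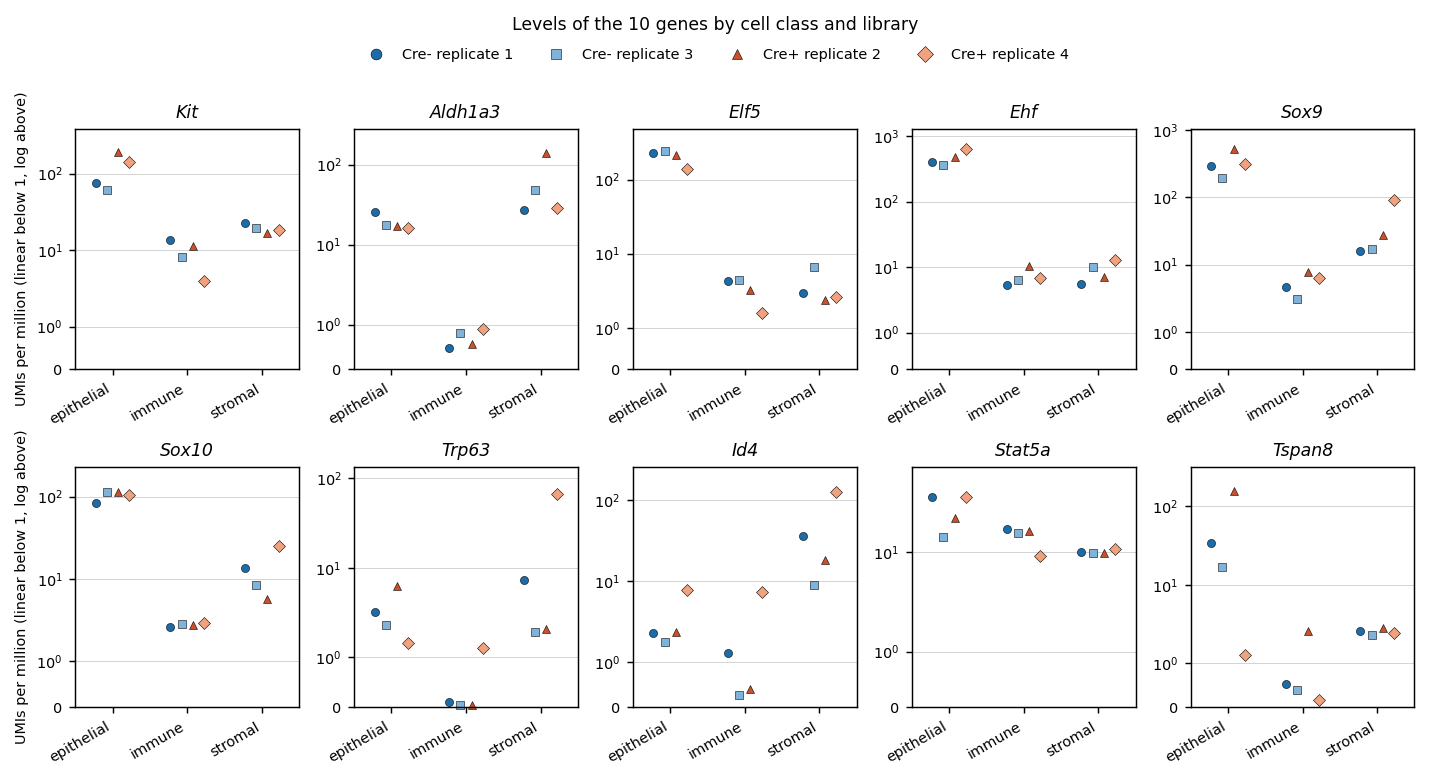
Levels of the 10 genes (UMIs of the gene per 1000000 UMIs, axis linear under 1 and log above) in epithelial, immune and stromal cells, 1 point per library, with Cre- and Cre+ libraries marked separately. Elf5, Ehf and Sox9 of all 4 libraries sit far higher in epithelial than in immune cells, whereas Aldh1a3 and Id4 are higher in stromal than in epithelial cells of every library.

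Of the 10 genes 8 were higher in epithelial than in immune cells (edgeR quasi-likelihood test on summed counts, adjusted p under 0.05), against 32.4% of all 16579 genes tested, and 0 were lower, against 28.6%. The median log2 fold change of the 10 was 4.70, beside 0.09 for all genes. Against stromal cells 7 were higher and 2 lower, where 26.6% of all genes were called higher and 28% lower, with medians of 2.77 and 0.05. Class sums of 1 mouse are paired, and a block for the mouse left both counts of higher genes unchanged.

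Kit, the receptor for stem cell factor, was counted in epithelial cells at 75.8 and 60.8 in Cre- and at 191 and 141 in Cre+ libraries. Both Cre+ libraries were above both Cre- libraries. Immune cells held 13.4, 8.24, 11.4 and 3.99 and stromal cells 22.3, 19.2, 16.5 and 18.5, so that the epithelial level exceeded both in every library. The log2 difference was 3.34 ± 0.42 (SE) against immune cells (edgeR adjusted p = 4.1e-05) and 2.53 ± 0.41 against stromal cells (edgeR adjusted p = 0.00036). In the immune class Kit was counted at 1694, 2491, 1771 and 3125 CPM in a few cells with the mast cell proteases Cpa3, Cma1, Mcpt4 or Tpsb2. Such cells numbered 10, 2, 8 and 1. They held 61, 27, 61 and 8 of the 259, 267, 306 and 209 Kit UMIs of the immune class, so that most of these UMIs lay outside them. In the stromal class Kit was found in cells with endothelial markers, at 75.9, 77.6, 121 and 128, a range that overlaps that of the epithelial cells, and at 0.889 to 4.26 in cells with fibroblast markers.

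The Kit ligand Kitl was highest in stromal cells, at 133, 67.4, 55.7 and 87.6 CPM, beside 28.9, 36.7, 30.7 and 10.5 in epithelial and 8.31, 9.20, 10.7 and 3.19 in immune cells. The ligand was thus lower in epithelial than in stromal cells (log2 -1.74, edgeR adjusted p = 0.0023) where its receptor was higher.

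Aldh1a3, which makes retinoic acid from retinaldehyde, was counted in epithelial cells at 25.9, 17.7, 16.9 and 16.1. Immune cells held 0.465 to 0.898, and the epithelial level was higher by a log2 of 4.49 ± 0.59 (edgeR adjusted p = 6.1e-05). Stromal cells held more than epithelial cells in each library, at 27.4, 47.7, 139 and 28.4, and the cells with fibroblast markers among them held 52.0, 67.7, 168 and 54.8. The difference of epithelial from stromal cells was -1.64 ± 0.50 on the log2 scale (edgeR adjusted p = 0.017), and it lost its call when Cre+ replicate 2 (log2 -0.79) or Cre- replicate 3 (log2 -1.65) was left out.

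Epithelial Aldh1a3 was concentrated in a small number of cells. The 1% of cells with the most Aldh1a3 UMIs held 54.2%, 86.0%, 59.1% and 60.2% of them, beside 10.4%, 14.7%, 9.81% and 13.2% for Kit. The rarely detected Id4 (57.4% to 79.5%) and Trp63 (29.4% to 75.7%) were concentrated too. In Cre- replicate 3 a single cell with 49333 UMIs carried 890 of the 1287 Aldh1a3 UMIs, or 69.2%, and the next cell 32. Without that cell the level of the library was 5.46 in place of 17.7 CPM.

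Of 10 other genes of retinoid metabolism and signalling, 4 were higher and 2 lower in epithelial than in immune cells, near the 32.4% and 28.6% of all genes, among them the carrier Crabp2 (log2 5.80) and the synthesizing enzyme Aldh1a2 (log2 -5.34). Against stromal cells, where 26.6% and 28% of all genes were higher and lower, 1 was higher and 6 lower, led by the enzymes Aldh1a1 (log2 -5.26) and Aldh1a2 (log2 -4.72) and the receptor Rarb (log2 -3.16), and Rarb lost its call without replicate 1, 2 or 3.

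Among the ETS factors, Elf5 was counted in epithelial cells at 228 and 239 in Cre- and at 215 and 140.2 in Cre+ libraries. Immune cells held 1.60 to 4.38 and stromal cells 2.36 to 6.68. The log2 differences were 5.69 ± 0.30 (edgeR adjusted p = 8.8e-08) and 5.82 ± 0.31 (edgeR adjusted p = 2.7e-07). Ehf, an epithelial ETS factor, was counted at 403 and 367 in Cre- and at 483 and 636 in Cre+ epithelial cells, and at 5.32 to 10.5 in immune and 5.49 to 13.0 in stromal cells. It exceeded the immune level by a log2 of 5.75 ± 0.28 (edgeR adjusted p = 6.1e-08) and the stromal level by 5.70 ± 0.28 (edgeR adjusted p = 2.2e-07). Cre+ replicate 4 had the lowest Elf5 and the highest Ehf of the libraries. The genes lie close together on mouse chromosome 2, with 2 listed genes between them.

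Of 5 further ETS genes 3 were higher and 0 lower in epithelial than in immune cells (all genes, 32.4% and 28.6%). These were the luminal factors Spdef (log2 5.55) and Elf3 (log2 5.37) and the PEA3 factor Etv4 (log2 3.76). Against stromal cells 4 were higher and 1 lower (all genes, 26.6% and 28%), led by Spdef (log2 5.91), Elf3 (log2 5.30) and Etv5 (log2 1.28). Etv5 lost its call without replicate 1 or 3. Elf5 and Ehf thus stood beside Spdef and Elf3 at differences of more than 5 on the log2 scale against both classes.

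ETS factors bind a core of GGAA. RefSeq promoter windows (assembly GRCm38.p6), which run from 250 bases before to 50 after a start site, were matched for 5 of the 10 genes. The windows of the alternative Elf5 starts are shown because Elf5 is itself an ETS factor and among the genes with the largest epithelial difference. Capitals mark GGAA on either strand, so that TTCC is the match on the opposite strand.
Elf5 start 1, chr2:103411848-103412147, plus strand: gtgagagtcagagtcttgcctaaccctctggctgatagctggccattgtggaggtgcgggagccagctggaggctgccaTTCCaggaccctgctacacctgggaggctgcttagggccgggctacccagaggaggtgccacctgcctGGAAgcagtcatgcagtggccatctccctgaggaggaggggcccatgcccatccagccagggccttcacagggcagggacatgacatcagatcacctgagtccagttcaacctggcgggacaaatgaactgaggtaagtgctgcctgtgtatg
Elf5 start 2, chr2:103423818-103424117, plus strand: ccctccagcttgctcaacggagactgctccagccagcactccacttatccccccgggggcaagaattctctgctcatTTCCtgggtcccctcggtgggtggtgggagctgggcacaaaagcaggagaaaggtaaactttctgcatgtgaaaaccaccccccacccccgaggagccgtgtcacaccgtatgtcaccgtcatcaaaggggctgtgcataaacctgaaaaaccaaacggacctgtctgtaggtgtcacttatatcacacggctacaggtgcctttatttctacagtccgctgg
The windows hold 2 matches and 1 match. GGAA was found in 96.0% of all 32851 windows, so its presence does not set the Elf5 windows apart.

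Among the SOX factors, Sox9, known from luminal progenitors, was counted in epithelial cells at 293 and 192 in Cre- and at 520.4 and 319.6 in Cre+ libraries. Immune cells held 3.12 to 7.68, and stromal cells 16.0, 17.2, 27.8 and 90.1. Cre+ replicate 4 was the highest of the stromal values and the only one above 30. The log2 differences of epithelial cells were 5.65 ± 0.39 against immune (edgeR adjusted p = 4.3e-07) and 3.32 ± 0.35 against stromal cells (edgeR adjusted p = 1.8e-05). Sox10, a factor of neural crest and also of mammary progenitors, was counted at 84.1 and 112 in Cre- and at 114 and 103 in Cre+ epithelial cells. Its levels in immune cells were 2.58 to 2.90 and in stromal cells 5.69 to 25.2, with log2 differences of 4.91 ± 0.38 (edgeR adjusted p = 1.0e-06) and 3.00 ± 0.34 (edgeR adjusted p = 3.6e-05).

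Stromal cells without any of the finer stromal markers held Sox10 at 98.1, 109, 97.0 and 66.1 CPM, a range that overlaps that of the epithelial cells. Of 4 further SOX genes 3 were higher and 0 lower in epithelial than in immune cells (Sox11, log2 5.61, Sox4, log2 4.44, and Sox8, log2 3.91), where 32.4% and 28.6% of all genes were. Against stromal cells the endothelial factor Sox18 was lower (log2 -6.59), while Sox8 (log2 1.99) and Sox4 (log2 1.52) were higher, where 28% of all genes were lower and 26.6% higher.

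Trp63, the basal factor, was low in epithelial cells, at 3.21 and 2.31 in Cre- and 6.25 and 1.43 in Cre+ libraries. Immune cells of the first 3 libraries held 1 or 2 Trp63 UMIs in all, and those of Cre+ replicate 4 held 66, or 1.26 CPM. The log2 difference of 3.28 ± 1.22 from immune cells was called (edgeR adjusted p = 0.036), but the call was lost without replicate 1 (log2 3.03) or replicate 3 (log2 2.70) and at an epithelial gate of 20 UMIs per 10000 (log2 2.68). In stromal cells Trp63 was counted at 7.34, 1.90, 2.09 and 66.7, and the difference of epithelial from stromal cells was not called (log2 -1.84 ± 1.08, edgeR adjusted p = 0.17).

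Id4, an inhibitor of basic helix-loop-helix factors known from basal mammary cells, was counted in epithelial cells at 2.27, 1.77, 2.37 and 7.75, in immune cells at 1.29, 0.278, 0.410 and 7.22, and in stromal cells at 35.8, 9.03, 18.3 and 127. Epithelial and immune ranges overlapped (log2 0.51 ± 0.87, edgeR adjusted p = 0.64). Within each library the epithelial level was above the immune one, in 4 of 4, by 1.07 to 6.38-fold. With the mouse as a block Id4 was not called either. Id4 was called higher than in immune cells with cells of 200 to 5000 genes and fewer than 30000 UMIs (log2 2.24) and with Krt5 and Krt14 added to the epithelial gate (log2 2.47). Id4 was lower in epithelial than in stromal cells (log2 -3.60 ± 0.90, edgeR adjusted p = 0.0060), a call lost without replicate 1 (log2 -3.23) and where Krt5 and Krt14 were added to the epithelial gate (log2 -1.83). Among stromal cells, those with pericyte markers held Id4 at 102, 19.7, 136 and 35.2, and those without finer markers at 184, 82.2, 91.3 and 316.

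Of the relatives of Id4, 0 of 3 were higher and 1 lower in epithelial than in immune cells (Id2, log2 -0.99), where 32.4% and 28.6% of all genes were. Against stromal cells Id3 (log2 -3.48) and Id1 (log2 -2.51) were lower and Id2 (log2 1.47) was higher, where 28% of all genes were lower and 26.6% higher. Of 5 tested p63-related or basal regulators 2 were higher and 1 lower than in immune cells, near the 32.4% and 28.6% of all genes (Mef2c, log2 -4.64, Tcf7l1, log2 3.84, and Tbx2, log2 0.82). Against stromal cells 0 were higher and 4 lower (all genes, 26.6% and 28%), led by Snai2 (log2 -5.06), Tbx2 (log2 -4.52) and Mef2c (log2 -4.10). The Tbx2 call against immune cells was lost without replicate 1, 2 or 4. Neither Trp63 nor Id4 was called higher in epithelial than in stromal cells.

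Stat5a, which carries the prolactin signal, was counted in epithelial cells at 35.6 and 14.2 in Cre- and at 21.7 and 35.3 in Cre+ libraries. Immune cells held 17.2, 15.5, 16.1 and 9.09, and the ranges overlapped (log2 0.62 ± 0.29, edgeR adjusted p = 0.086). Without Cre- replicate 3, whose epithelial level was below its immune level, the difference was called (log2 0.87). Stromal cells held 9.75 to 10.8, under every epithelial value (log2 1.39 ± 0.30, edgeR adjusted p = 0.0024). Stat5a lies next to Stat5b on chromosome 11, and how their reads were split was not tested. Of 7 other genes of this axis 4 were higher and 2 lower than in immune cells (all genes, 32.4% and 28.6%), led by the milk genes Wap (log2 6.56) and Csn2 (log2 6.02) and the prolactin receptor Prlr (log2 5.89), and 3 were higher and 1 lower than in stromal cells (all genes, 26.6% and 28%), led by Csn2 (log2 7.56), Wap (log2 6.71) and Prlr (log2 5.07). Csn2 lost both calls without replicate 1 or 3 and with DESeq2 (log2 4.75 and 4.66).

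Tspan8, a tetraspanin of the cell surface, varied more between libraries than any other member, at 33.9 and 17.0 in Cre- and at 157 and 1.29 in Cre+ epithelial cells. The highest and lowest library were both Cre+ and differed 121-fold, whereas the corresponding ratio was 4.37 or less for the other 9 genes. Immune cells held 0.172 to 2.61 and stromal cells 2.29 to 2.84, so that in Cre+ replicate 4 the epithelial level was under the stromal one. The log2 differences were 5.51 ± 1.20 against immune (edgeR adjusted p = 0.0021) and 4.03 ± 1.13 against stromal cells (edgeR adjusted p = 0.011), and the second call was lost without replicate 1 (log2 4.14) or replicate 3 (log2 4.40). In the stromal class Tspan8 was found in cells with endothelial markers, at 8.36, 9.17, 15.8 and 19.9.

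Further lists describe the luminal setting of the members. Of 12 luminal regulators 9 were higher and 1 lower in epithelial than in immune cells, led by Tfcp2l1 (log2 5.55), Foxa1 (log2 5.38) and Nfib (log2 5.27), and 9 were higher and 0 lower than in stromal cells, led by Foxa1 (log2 6.46), Tfcp2l1 (log2 4.0) and Grhl2 (log2 3.70). Foxa1 lost both calls without replicate 1. Of 5 surface genes used to sort luminal progenitors 3 were higher and 1 lower than in immune cells (Cd55, log2 2.79, Cd14, log2 -2.77, Cd24a, log2 2.41), and 2 were higher and 3 lower than in stromal cells (Cd24a, log2 3.98, Cd14, log2 2.78, Itga2, log2 -2.05). Over all the lists, 29 of 52 tested genes were higher and 8 lower than in immune cells, where 32.4% and 28.6% of all genes were, and 22 were higher and 19 lower than in stromal cells, where 26.6% and 28% were.

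Members were then compared between parts of the epithelium. Basal keratins were read from Krt5 and Krt14, which together reached 10 UMIs per 10000 in 33, 39, 30 and 147 epithelial cells. A further 8, 6, 6 and 220 cells passed this keratin gate but were not in the epithelial class, as Epcam, Krt8 and Krt18 together were under 10 UMIs per 10000.

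**Figure D2:**
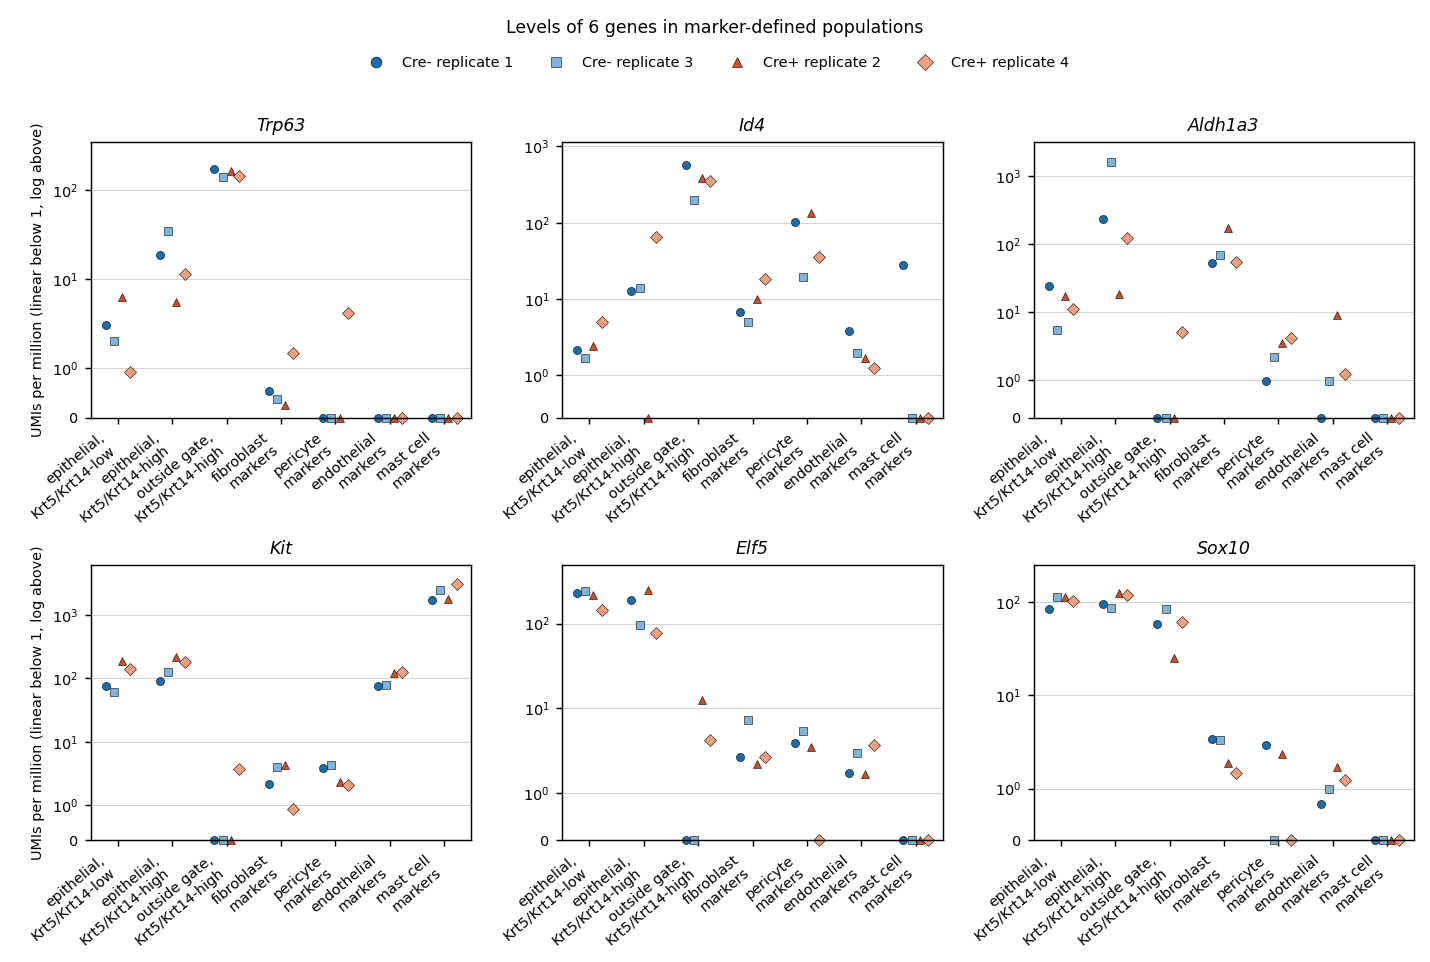
Levels of 6 of the genes (CPM, axis linear under 1 and log above) in populations defined by marker genes, 1 point per library. Of the populations plotted, Krt5/Krt14-high cells outside the epithelial gate hold the most Trp63 and Id4 in every library, while Kit there is at 0 UMIs in 3 libraries and at 3.68 CPM in Cre+ replicate 4.

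Trp63 and Id4 were highest in the Krt5/Krt14-high cells outside the epithelial gate. Trp63 was counted there at 175, 143, 164 and 145 CPM, from 18, 22, 13 and 709 UMIs, which is 26.2 to 101-fold above the epithelial cells of the same library. Id4 was counted at 573, 201, 391 and 350.1, or 45.2 to 253-fold above. The libraries were alike in this, although 3 of them rest on 8 cells or fewer.

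Ehf, Sox9 and Sox10 were lower there than in epithelial cells in 4 of 4 libraries, and Stat5a was higher in 2 of 4. Kit and Aldh1a3 had 0 UMIs in the first 3 libraries, which allows up to 29.2, 19.5 and 37.8 CPM and for Aldh1a3 does not separate these cells from the epithelial level, and were at 3.68 and 5.11 in Cre+ replicate 4. Elf5 had 0, 0, 12.6 and 4.29, Ehf 9.72 to 30.5, Sox9 64.9 to 162 and Sox10 25.2 to 84.3. In Cre+ replicate 4, with 220 cells, Sox9 was at 162 and Sox10 at 61.5, while Kit, Elf5 and Ehf were at 30.5 or less. The contractile genes Acta2 (6299, 7141, 6762 and 3359 CPM) and Myh11 (739, 668, 1123 and 241), textbook myoepithelial genes, were counted in these cells, without a comparison with other classes here. Mylk was counted at 265 to 1123 and the oxytocin receptor Oxtr at 95.7 to 290.

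Of the 220 such cells of Cre+ replicate 4, 146 were above its order-of-magnitude minimum. They were 59.9% of all Krt5/Krt14-high cells of that library, beside 13.3% to 19.5% in the others, and 112 of them were in no class, 87 in the stromal and 21 in the immune class. The stromal levels of Trp63 (66.7), Id4 (127), Sox9 (90.1) and Sox10 (25.2) in Cre+ replicate 4 contain these 87 cells. Likewise its immune levels of Trp63 (1.26) and Id4 (7.22) contain the 21 cells.

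Within the epithelial class, Krt5/Krt14-high cells were compared with the remaining, Krt5/Krt14-low cells. In edgeR 0 of the 10 genes were called, where 0.107% of 14989 genes were, and 5 passed an unadjusted p of 0.05, where 13.1% of all genes did. DESeq2 called 3 of the 10, and 3.5% of all genes. With the mouse as a block, which the design pairs, edgeR called Id4 and Trp63, and 3.84% of all genes. In that fit 7 of the 10 passed an unadjusted edgeR p of 0.05, as did 2814 of 15655 genes.

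Aldh1a3 was counted at 228, 1575, 18.4 and 122 in Krt5/Krt14-high and at 23.8, 5.33, 16.9 and 10.9 in Krt5/Krt14-low epithelial cells. The single cell of Cre- replicate 3 passed the keratin gate, and without it 22.9 in place of 1575 remained. The log2 difference of 4.18 ± 1.13 was not called by edgeR (adjusted p = 0.20), was called by DESeq2 (adjusted p = 0.00043) and was 2.74 without that cell.

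Id4 was counted at 12.9, 14, 0 and 64.0 in Krt5/Krt14-high and at 2.16, 1.68, 2.39 and 4.98 in Krt5/Krt14-low cells (log2 3.02 ± 0.79, edgeR adjusted p = 0.18). Trp63 was counted at 18.7, 34.9, 5.51 and 11.6 against 3.05, 2.05, 6.26 and 0.935 (log2 2.38 ± 0.68, edgeR adjusted p = 0.23). In Cre+ replicate 2 neither was higher in the keratin-high cells. With the block their log2 differences were 2.65 (edgeR adjusted p = 0.028) and 2.74 (edgeR adjusted p = 0.031), and without replicate 2 both were called as well (log2 3.08 and 3.37). With the keratin-high cells from outside the gate included, a setting added after the data were seen, they were 5.12 (edgeR adjusted p = 0.0061) and 4.12 (edgeR adjusted p = 0.020), and these were the 2 members called, where 1.63% of all genes were.

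Kit and Sox9 were higher in Krt5/Krt14-high than in Krt5/Krt14-low epithelial cells in 4 of 4 libraries, by 1.14 to 2.06-fold and 1.25 to 2.08-fold, without a call (log2 0.42 ± 0.18 with edgeR adjusted p = 0.37, and 0.61 ± 0.19 with edgeR adjusted p = 0.26). With the mouse as a block neither Kit nor Sox9 was called. Elf5 and Stat5a were higher in 1 of 4. In Cre+ replicate 4, the library with the most such cells, Kit was at 183 CPM in the keratin-high cells inside the epithelial gate and at 3.68 CPM in those outside it.

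Alveolar character was read from the 6 milk genes Csn1s1, Csn2, Csn3, Wap, Lalba and Glycam1. Each library was divided at its own median of milk UMIs, 81.1, 71.4, 128 and 11.1 per 10000, into an upper and a lower part of equal size. Cre+ replicate 4, with the lowest Tspan8 and Elf5, also had the lowest milk median.

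Tspan8 showed the largest ratio among the members. It was counted at 57.0, 24.1, 295 and 2.06 in the upper and at 14.5, 8.73, 64.8 and 0.202 in the lower parts, 2.76 to 10.2-fold higher in 4 of 4 libraries. The 10.2-fold ratio, of Cre+ replicate 4, rests on 87 against 6 Tspan8 UMIs. In that library the 1% of epithelial cells with the most Tspan8 UMIs held 89.2% of them. Elf5 was counted at 320.3, 276, 253 and 179 against 151, 196, 189 and 85.2, or 1.34 to 2.12-fold higher in 4 of 4. Ehf (1.02 to 1.99-fold) and Sox10 (1.01 to 1.54-fold) were also higher in 4 of 4, with the lowest ratios close to 1. Stat5a did not share this, being higher in the upper part only in Cre+ replicate 4, or 1 of 4 (0.775 to 1.70-fold). Id4 was lower in the upper part in 4 of 4 (0.239 to 0.704-fold), and Kit was higher in 3 of 4, with 116 against 177 in Cre+ replicate 4.

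The Tspan8 window is shown because Tspan8 had the largest ratio between the milk parts, and STAT5 binds the palindrome TTCNNNGAA in milk gene promoters. Capitals mark GGAA on either strand, as above.
Tspan8, chr10:115817034-115817333, plus strand: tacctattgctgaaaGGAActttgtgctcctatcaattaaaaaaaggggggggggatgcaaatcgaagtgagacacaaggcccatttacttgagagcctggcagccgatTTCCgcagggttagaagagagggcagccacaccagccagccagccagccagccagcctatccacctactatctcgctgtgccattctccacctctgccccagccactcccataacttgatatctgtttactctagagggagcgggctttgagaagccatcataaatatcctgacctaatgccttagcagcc
It holds 2 matches to GGAA. TTCNNNGAA was found in 8.30% of all windows and in 0 windows of the 5 matched members, which says only that these letters are absent from these windows.

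Hormone-sensing character was read from Prlr, Pgr, Esr1 and Cited1, which together reached 10 UMIs per 10000 in 368, 7, 89 and 0 epithelial cells. The Cre- libraries held both the most of these cells and, among libraries with any, the fewest. Cre+ replicate 4 had none and gives no value here.

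**Figure D3:**
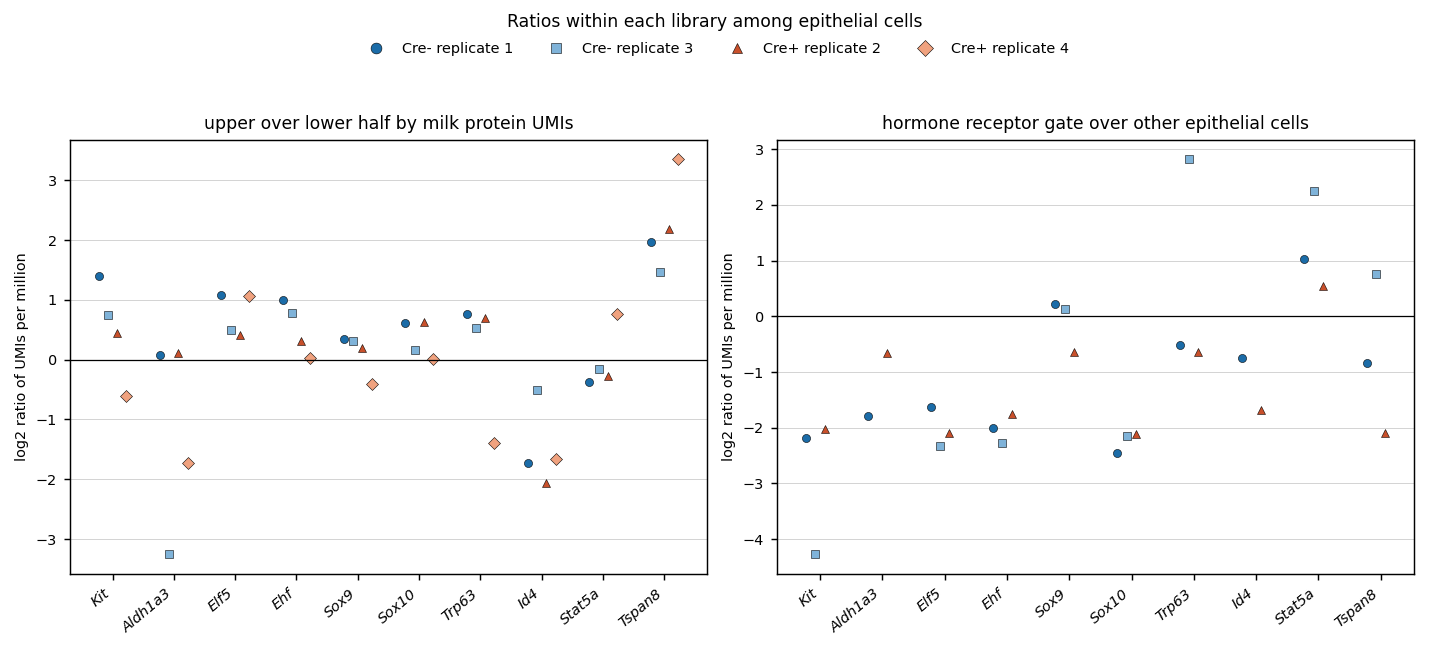
Ratios of levels within each library among epithelial cells (log2 axis, 1 point per library) for the 10 genes, with the milk gene comparison in one panel and the hormone receptor comparison in the other, and no point where a level is 0. Kit, Elf5, Ehf and Sox10 sit under 0 in hormone receptor cells of all 3 libraries that had them, while Stat5a sits above 0, and Tspan8 is the gene farthest above 0 in the milk panel.

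Kit was lower in the hormone receptor cells in 3 of 3 libraries, at 19.7 against 89.2, 3.18 against 61.0 and 49.2 against 201. Elf5 was at 0.199 to 0.324, Ehf at 0.207 to 0.298 and Sox10 at 0.182 to 0.231 of the level in the other epithelial cells. Sox9 did not share this, at 0.639 to 1.16. Stat5a was higher in 3 of 3, at 60.8 against 29.6, 66.7 against 13.9 and 30.8 against 21.1. The values of Cre- replicate 3 rest on 7 hormone receptor cells, with 1 Kit, 15 Elf5, 24 Ehf, 8 Sox10, 66 Sox9 and 21 Stat5a UMIs. These ratios within 3 mice are descriptions and were not tested.

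Detection was compared after each cell had been thinned to 2000 UMIs, which left out 196, 330, 157 and 600 shallower epithelial cells. At least 1 of the 10 genes was detected in 83.3%, 78.1%, 91.2% and 82.0% of the thinned epithelial cells, and 4 or more in 9.61%, 3.41%, 15.8% and 6.35%. Ehf was detected in 50.0%, 42.9%, 56.9% and 56.6%, with a 95% exact binomial interval of 47.9% to 52.0% in the first library. Intervals and floors cover counting error only. In immune cells, which should lack it, Ehf was detected in 1.26% to 2.32%.

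Kit was detected in 18.1% and 11.1% of Cre- and in 34.4% and 21.4% of Cre+ epithelial cells, beside 1.01% to 2.68% of immune cells, and unthinned in 55.8%, 44.2%, 73.2% and 48.5%. Elf5 was detected in 33.0%, 34.8%, 31.6% and 20.2%, Sox9 in 37.5%, 26.2%, 49.8% and 35.9%, and Sox10 in 16.4%, 18.2%, 20.4% and 17.8%. Stat5a was detected in 7.51%, 2.26%, 3.98% and 6.19% of epithelial cells, beside 2.03% to 3.89% of immune cells, so that Cre- replicate 3 lay within the immune range. Tspan8 was detected in 6.48%, 3.24%, 23.9% and 0.35%. Aldh1a3 (1.54% to 4.12%), Trp63 (0.38% to 1.16%) and Id4 (0.25% to 1.50%) were found in few epithelial cells. In stromal cells Aldh1a3 reached 4.91%, 5.82%, 16.9% and 3.96%.

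Free RNA could be read only in Cre+ replicate 4, from its barcodes with up to 100 UMIs. Those held Ehf at 184, Sox9 at 128, Elf5 at 60.8, Kit at 54.8, Sox10 at 42.8, Id4 at 23.5, Stat5a at 20.1, Aldh1a3 at 9.23, Trp63 at 3.81 and Tspan8 at 0.803 CPM. Its epithelial cells were higher than these barcodes in 8 of the 10 genes and lower in Trp63 and Id4. The part of free RNA in the immune and stromal levels was not tested.

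**Figure D4:**
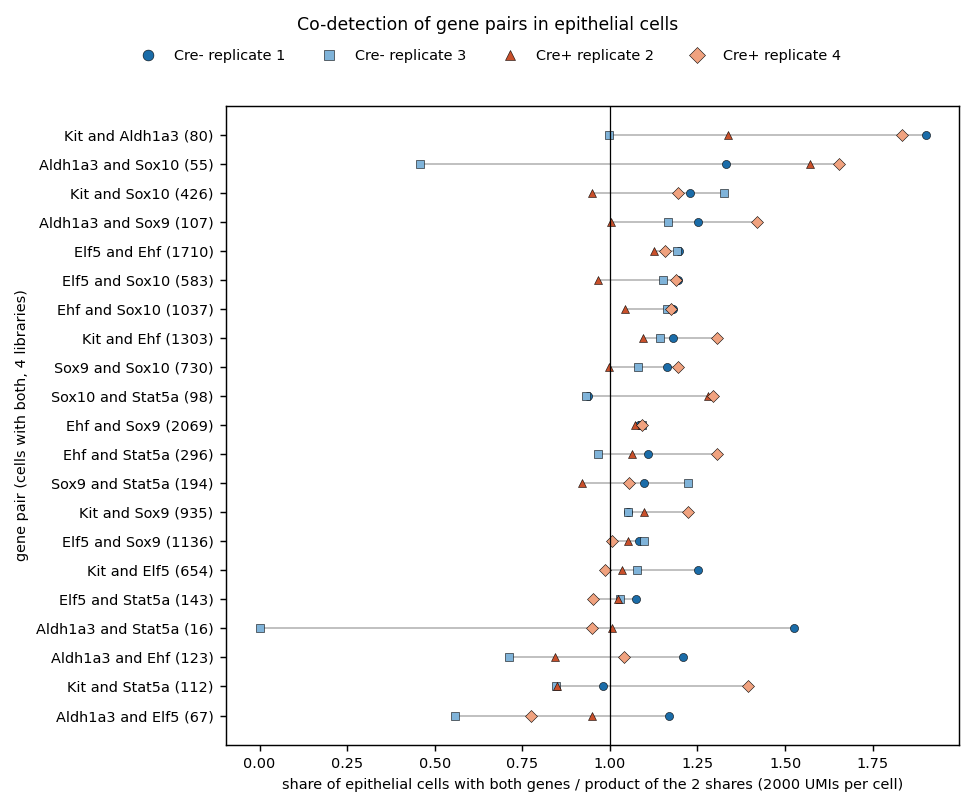
Observed share of epithelial cells with both genes of a pair, divided by the product of the single shares, in cells thinned to 2000 UMIs, with 1 point per library for the pairs that could be described in all 4. Elf5 with Ehf lies between 1.13 and 1.20, and Ehf with Sox9 between 1.07 and 1.09.

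Pairs of members were examined in the thinned epithelial cells, as the share of cells with both genes over the product of the single shares. Of 45 pairs 21 could be described in all 4 libraries, having genes detected in at least 1% of the cells of each. Of these 21 the ratio was above 1 in every library for 7 pairs and below 1 in every library for 0. Pairs of other genes were not examined, so these counts have no background to be set against and are descriptions. Elf5 and Ehf were found together in 19.7%, 17.8%, 20.2% and 13.3% of cells, beside products of 16.5%, 14.9%, 18.0% and 11.5%. Ehf and Sox9 were found together in 20.3%, 12.3%, 30.4% and 22.2%.

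Kit stood above 1 with Ehf (1.09 to 1.31) and with Sox9 (1.05 to 1.22), and Ehf also with Sox10 (1.04 to 1.18). Elf5 with Sox9 (1.01 to 1.10) and Aldh1a3 with Sox9 (1.00 to 1.42) came down to 1 in their lowest library. Kit with Aldh1a3, the pair of progenitor markers, ranged from 0.998 to 1.90 and was above 1 in 3 of 4, with 80 cells holding both. Kit with Stat5a ranged from 0.847 to 1.39 and was above 1 in 1 of 4. The remaining 24 pairs were too rare in 1 library or more to be read across all 4. Trp63 with Id4 could be described in none, since no library had both in at least 1% of its cells.

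The genes most alike to each member across thinned epithelial cells were sought among 3952 genes by Pearson r of log-normalized values within each library, which share depth and library. Kit was most like Igfbp5, an insulin-like growth factor binding protein, at a mean r of 0.29 (0.22 to 0.33), and then Malat1, a nuclear long noncoding RNA, at 0.23 (0.18 to 0.32). Ehf was most like Wfdc18, a small secreted protein of luminal cells, at 0.28 (0.16 to 0.39). No gene met the minimum of a mean r of 0.2 and 0.1 in every library for the other 8 members. These correlations over sparse counts are weak and are descriptions.

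The genotype comparison asks whether the members differ in epithelial cells that carry Cre. With edgeR 0 of the 10 genes were called, and 0% of 16575 genes, while 2.3% of genes had an unadjusted p under 0.05. DESeq2 called 1 of the 10, which was Kit, and 0.326% of all genes. The levels of the Cre+ and Cre- libraries did not overlap for 6 of the 10 genes, 4 higher and 2 lower in Cre+, where 27.5% of all genes did not overlap, 11.7% higher and 15.8% lower. Id4, 1 of the 4 higher genes, was only just apart, at 2.37 CPM in Cre+ replicate 2 and 2.27 in Cre- replicate 1. Aldh1a3, 1 of the 2 lower genes, overlapped once the single cell of Cre- replicate 3 was left out, which put that library at 5.46 CPM.

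Kit was the member with the largest difference relative to its error. Its epithelial level was 166 ± 35.5 CPM (SD, n = 2) with Cre and 68.3 ± 10.6 CPM (SD, n = 2) without, a log2 difference of 1.34 ± 0.22 with an unadjusted edgeR p of 0.0021, an edgeR adjusted p of 1.00 and a DESeq2 adjusted p of 0.0023. It was higher in 2 of 2 Cre+ libraries than in both Cre- libraries. With cells restricted to 200 to 5000 genes and fewer than 30000 UMIs the log2 difference was 0.97. There 0 of the 10 genes, Kit included, had an unadjusted edgeR p under 0.05.

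The other members gave no call with either tool. Sox9 (log2 0.84 ± 0.32), Ehf (log2 0.62 ± 0.27) and Id4 (log2 1.44 ± 0.73) were higher in both Cre+ libraries, and Elf5 (log2 -0.35 ± 0.22) and Aldh1a3 (log2 -0.34 ± 0.27) lower, all with edgeR adjusted p of 1.00. The Id4 levels of Cre+ replicate 2 and Cre- replicate 1 rest on 146 and 193 UMIs. In thinned cells Cre+ replicate 2 had the lowest Id4 detection share of the libraries, at 0.25%. Sox10, Trp63, Stat5a and Tspan8 overlapped between genotypes. The log2 difference of Tspan8, 1.61 ± 1.80, became -4.14 without Cre+ replicate 2, and that of Aldh1a3 became 0.13 without the single cell of Cre- replicate 3. Of the 52 related genes tested 0 were called.

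In detection shares Kit was higher in Cre+ by 13.3 percentage points and Ehf by 10.3, and Elf5 was lower, with 25.9% ± 8.04 (SD, n = 2) against 33.9% ± 1.28 (SD, n = 2), without overlap. These were 3 of the 10 genes, where 26.2% of 11169 genes did not overlap. All 3 overlapped within the limits of 200 to 5000 genes and fewer than 30000 UMIs, and also without thinning. Elf5 overlapped at 5000 UMIs per cell as well. Without Cre+ replicate 4 its difference was -2.30 percentage points, and without Cre+ replicate 2 it was -13.7. Each gave p = 0.33 in the two-sided exact permutation test, which 4 mice cannot bring lower. The share of Krt5/Krt14-high cells, the depth, the milk median and the Cell Ranger version also differed for Cre+ replicate 4, and within the Cre+ group they cannot be told apart from the mouse.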

How the data were processed

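Sorted tumor cells of 4 replicates, each taken as 1 mouse, went into 1 library each (10x Genomics 3' v3 chemistry). What the authors deposited are UMI counts of each gene in each barcode, written by Cell Ranger and not normalized. Headers name Cell Ranger 6.1.2 for replicates 1 to 3, deposited as called cells, and Cell Ranger 4 for replicate 4, deposited with every barcode. The submitters' processing notes name hg38, although the identifiers are mouse Ensembl genes, so no coordinates were taken from these files. Library totals were 112729231 to 157662955 UMIs.

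Barcodes with at least 1000 UMIs and at most 20% mitochondrial UMIs were kept. A barcode was epithelial where its epithelial marker sum (3 genes) reached 10 per 10000 UMIs, whatever its other sums. The remaining barcodes were immune or stromal by the larger of the immune (8 genes) and stromal (8 genes) sums, where that reached 10 per 10000 UMIs. No doublet caller was run, and profiles passing several gates were removed in an alternative. Counts were summed per library and class and tested with edgeR 4.0.16 in R 4.3.3 (quasi-likelihood, TMM, filterByExpr, Benjamini-Hochberg, threshold 0.05), with DESeq2 1.42.0 as an alternative. The test was also run on counts simulated with a fixed spread and no effect of the mouse, so that run does not cover paired class sums. Class sums of 1 library come from 1 mouse, and their deviations from the group means correlated at 0.17 to 0.43 over 16005 genes, so a block for the mouse was also fitted. Only separate mice count as replicates. Other work used Python 3.11.15.

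The 10 genes, the related lists and the tests were chosen with earlier results of these data known. Named were all 10 members, up to 3 called genes per list with the largest fold change, and up to 3 genes most alike to each member. Promoter windows came from RefSeq. Some results on related genes and on 1 stromal subclass are not reported here.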

Additional observations from a re-analysis of the deposited data

Results flagged for a closer look

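Barcodes that reached none of the 3 class gates took part in no comparison between the classes, and Trp63 and Id4 were higher in them than in the epithelial, immune and stromal cells of the same library in all 4 libraries. Trp63 was counted there at 44.9 and 21.3 CPM in the Cre- libraries (replicates 1 and 3) and at 9.85 and 68.8 CPM in the Cre+ libraries (replicates 2 and 4). Id4 was counted at 146, 46.1, 36.9 and 320.4 CPM in the same order. These barcodes numbered 109, 282, 124 and 366, and 5, 4, 3 and 112 of them passed the Krt5/Krt14 gate.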

How the results depend on the processing

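The counts of members called higher than in immune (7 to 9) and in stromal cells (6 or 7) stayed within 1.5 times their main value in all settings run, while the 2 called lower than in stromal cells became 1 with the widened gate and without replicate 1, 2 or 3. Between genotypes DESeq2 called 1 member in place of 0. Between keratin-high and keratin-low epithelial cells DESeq2 called 3, the replicate block 2 and the widened gate, added after seeing the data, 2, and leaving out single replicates gave 0 to 2, where edgeR called 0. The genes called there were 16, but 525 with DESeq2, 601 with the block, 249 with the widened gate, 139 with a keratin gate of 30, 76 without the filter on low counts, 164 without replicate 2, 49 without replicate 4, 0 without replicate 1 or 3, and 1 with order-of-magnitude cells, at a gate of 20 or without the cell with most Aldh1a3 UMIs. Between genotypes 0 became 54 with DESeq2, the only change among the settings that kept all 4 libraries. Members without overlap in detection were 3, but 5 with order-of-magnitude cells of Cre+ replicate 4, 0 within the gene and UMI limits, 0 without thinning and 6 to 8 with single replicates left out, where 1 library stands alone. Pairs above 1 in all libraries were 7, but 12 at 5000 UMIs and 43 without thinning. Which pairs these were changed with the setting. Kit with Ehf, Elf5 with Ehf, Ehf with Sox9 and Ehf with Sox10 were among them in every setting.

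Some log2 differences of members without a call turned in sign. Against immune cells Id4 became -0.42 at a gate of 20. Against stromal cells Trp63 became 0.50 with the widened gate, and -2.43 to 0.000103 with single replicates left out. Between genotypes Aldh1a3 became 0.13 without the single cell, and with single replicates left out Trp63 ranged from -0.79 to 1.15, Stat5a from -0.24 to 1.09 and Tspan8 from -4.14 to 2.59. Between keratin-high and keratin-low cells Kit became -0.041 with the widened gate, Sox10 0.0088 at a gate of 20, 0.034 with DESeq2 size factors and 0.039 with DESeq2, and Tspan8 -0.32 within the gene and UMI limits, -0.16 with the widened gate and -1.27 at a keratin gate of 30. With single replicates left out Ehf ranged from -0.24 to 0.039, Sox10 from -0.086 to 0.13 and Tspan8 from -0.61 to 0.44. The cause was not tested. With 2 mice per genotype and 39 or fewer keratin-high epithelial cells in 3 libraries, small differences were not detectable.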
